A study of Rattus norvegicus with 64 samples.

Results

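The 9 genes described here encode the dopamine and adrenergic receptors Drd1, Drd2, Drd5, Adra1a, Adra1b, Adra1d, Adra2a, Adra2c and Adrb1. They were chosen by name, and each was found once among the 17260 genes of every count file. All 9 were among the 12521 genes that passed the filter on low counts. The RNA came from Long Evans rats aged 2, 9, 23 or 45 days after birth (P2, P9, P23, P45), with no treatment or genotype that set the animals apart. The labels name layer II (LII) and deep layers (LDeep) of the medial (MEC) and the lateral entorhinal cortex (LEC). For MEC the paper describes dissection under a microscope, with layers III to VI as LDeep. How LEC was dissected is not stated in the sources used here. The 64 libraries thus formed 16 groups of region, layer and age, each of 5 libraries at P2, 4 at P9, 3 at P23 or 4 at P45. The study counts the libraries of a group as biological replicates. No source used here says which of these libraries of different layers or regions came from 1 animal. In such bulk tissue fewer cells of a type cannot be told apart from less RNA per cell.

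Dopamine and noradrenaline act on cortical neurons and glia through receptors that couple to G proteins. The D1-like receptors Drd1 and Drd5 and the beta receptor Adrb1 raise cyclic AMP through stimulatory G proteins. The D2-like receptor Drd2 and the alpha2 receptors Adra2a and Adra2c lower it through inhibitory G proteins, and the alpha1 receptors Adra1a, Adra1b and Adra1d act through phospholipase C and calcium. Dopamine reaches the entorhinal cortex from the midbrain and noradrenaline from the locus coeruleus, so transcripts of the enzymes that make them are mostly made elsewhere in the brain.

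In the deposited annotation of rn6, Drd1 lay at chr17:11100927-11104352 (plus strand), Drd2 at chr8:53678777-53743642 (plus), Drd5 at chr14:77220579-77222006 (minus), Adra1a at chr15:43299385-43392431 (plus), Adra1b at chr10:29392762-29450644 (minus), Adra1d at chr3:124129558-124145566 (minus), Adra2a at chr1:274766283-274769083 (plus), Adra2c at chr14:80730307-80732010 (minus) and Adrb1 at chr1:277537585-277538985 (plus). Drd1, Drd5, Adra2a, Adra2c and Adrb1 were each counted on 1 exon interval, and no other gene model overlapped an exon of any of the 9.

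RefSeq windows of the 250 bases upstream of the gene start, on the later build GRCr8, were at hand for 8 of the 9 receptors. The 6 letters GGGCGG, a GC box, were searched on both strands and stood in the windows of 3 of them, Drd2, Drd5 and Adra2c, against 30.5% of 33469 windows of all genes. The letters TATAAA and TGACGTCA, a TATA box and a cyclic AMP response element, were in 0 of the 8, against 12.9% and 1.6% of all windows. A match describes letters only, and no binding was measured here. The 3 windows that held the GC box are shown because these receptors followed 3 different courses below, and capitals mark the box on either strand.
Drd2, chr8:58605153-58605402, plus strand: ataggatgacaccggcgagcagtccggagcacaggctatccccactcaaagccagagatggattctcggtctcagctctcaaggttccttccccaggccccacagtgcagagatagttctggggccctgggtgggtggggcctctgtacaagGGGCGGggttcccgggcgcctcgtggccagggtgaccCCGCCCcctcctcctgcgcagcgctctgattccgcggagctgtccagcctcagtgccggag
Drd5, chr14:76703345-76703594, minus strand: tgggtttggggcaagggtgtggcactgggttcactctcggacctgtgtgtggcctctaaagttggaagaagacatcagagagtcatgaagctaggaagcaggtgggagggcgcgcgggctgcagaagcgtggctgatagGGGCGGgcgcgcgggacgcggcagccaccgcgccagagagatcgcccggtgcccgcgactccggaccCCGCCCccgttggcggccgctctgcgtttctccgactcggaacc
Adra2c, chr14:79697477-79697726, minus strand: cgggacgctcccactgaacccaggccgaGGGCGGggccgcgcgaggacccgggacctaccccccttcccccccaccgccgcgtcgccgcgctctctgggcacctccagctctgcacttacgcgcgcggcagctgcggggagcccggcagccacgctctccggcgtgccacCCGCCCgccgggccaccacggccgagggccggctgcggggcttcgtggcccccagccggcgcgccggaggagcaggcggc

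The libraries held 3894334 to 11439143 counts, so that 1 count was worth 0.0874 to 0.257 CPM, the count scaled to the library's size. Between the layers the tissue markers went with the labels: all 10 deep-layer neuron markers were lower in LII and all 4 LII neuron markers higher. LII also held more transcripts of the meninges: 11 of 12 meningeal fibroblast markers were higher there, with a median log2 fold change (LFC) of 3.88. So were 8 of 8 astrocyte markers (median 0.83), 5 of 5 endothelial markers (0.78) and 7 of 7 markers of smooth muscle and pericytes (0.88), while 4 of 5 pan-neuronal markers were lower (−0.20). The part of these cells in the layer results below was not tested. With age, 8 of 8 oligodendrocyte markers rose, with a median LFC of 6.64. In 3 MEC libraries at P2 the markers stood apart from their own group. LII replicate 1 had a summed glutamatergic marker level of 134 CPM, against 665 to 747 CPM in replicates 2, 4 and 5, and meningeal markers at 30.7 CPM, against 836 to 1518 CPM. Its GABAergic markers summed to 1402 CPM, against 354 to 453 CPM. Its choroid plexus markers summed to 29.2 CPM, against 1.07 to 1.51 CPM. LDeep replicate 1 had meningeal markers at 1207 CPM, against 49.2 to 90.1 CPM in the other LDeep libraries, and LII neuron markers at 792 CPM, against 268 to 397 CPM. LII replicate 3 had meningeal markers at only 45.4 CPM. It carried 4700 counts of Th, the first enzyme of catecholamine synthesis, and 4753 of the dopamine transporter Slc6a3. Whether samples were exchanged or neighbouring tissue was included was not tested. Several results that rest on these 3 libraries are given with and without them, and the others with all 64 libraries only.

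Per length, the receptors differed several-fold in their level. Averaged over the 16 groups as CPM per kilobase of gene model, the order was Adra2c (15.3), Adra2a (11.8), Drd1 (7.05), Adrb1 (4.93), Adra1d (3.46), Drd2 (2.73), Adra1b (2.47), Adra1a (2.35) and Drd5 (1.21). At P2 Adra2a came first at 14.4 CPM per kilobase and Adra2c second at 4.52, while at P45 Adra2c led at 23.4 and Adra2a stood at 10.1. With all ages pooled, neighbours in this order were told apart poorly. Adra2c exceeded Adra2a in 34 of 64 libraries, Drd2 exceeded Adra1b in 31 and Adra1b exceeded Adra1a in 40. The mean differences were smaller than their SD over libraries. For Adra2c and Adra2a this pools ages at which their order was opposite, as the values at P2 and P45 show. Adrb1 exceeded Adra1d in 57 of the 64. Raw counts set the precision: Adra2a had 97 to 491 counts in a library, Drd1 4 to 459, and Drd5 0 to 91 with a median of 6.5.

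**Figure D1:**
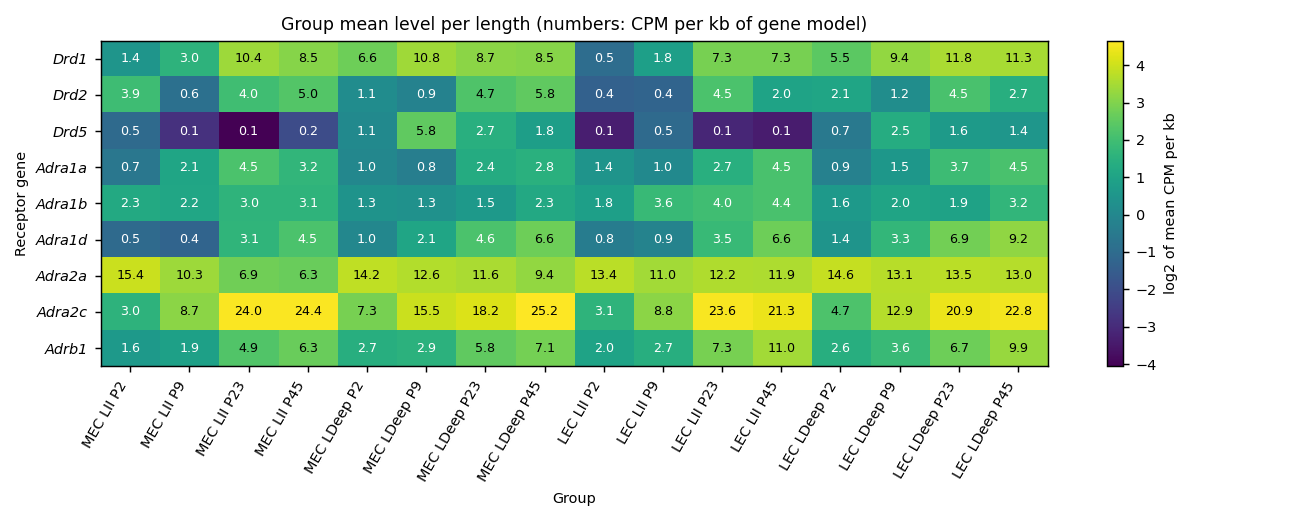
Mean CPM per kilobase of gene model of each receptor (vertical) in each of the 16 groups (horizontal), printed in the cells, with the colour giving its log2. Adra2a leads in the P2 groups and Adra2c in those of P23 and P45, and Drd5 is darkest in LII.

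The first comparison asked how the receptors differed between LII and LDeep, with both regions and all ages weighted equally. Of the 9 receptors, 7 were differentially expressed (edgeR quasi-likelihood test, Benjamini-Hochberg (BH) adjusted p below 0.05), against 54% of all genes tested. Adra1b was higher in LII, against 23.5% of all genes, and Drd1, Drd5, Adra1d, Adra2a, Adra2c and Adrb1 were lower, against 30.5%. The median LFC of the 9 was −0.35, and that of all genes tested −0.05. Among all genes called, 43.5% were higher in LII, or 65.6% when libraries were scaled by their totals alone, where 1 receptor was higher and 5 were lower. Without the 3 libraries that stood apart, Drd2 joined the receptors lower in LII, so that 8 were called.

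The second comparison set P23 and P45 against P2 and P9. Here 8 of 9 receptors changed, against 81.6% of all genes: Drd1, Drd2, Adra1a, Adra1b, Adra1d, Adra2c and Adrb1 rose (41% of all genes did) and Adra2a fell (40.6%). The median LFC of the 9 was 1.56, beside 0.01 over all genes tested. Between MEC and LEC only 3 of 9 receptors were called, all lower in MEC: Adra1d, Adra2a and Adrb1. Of all genes 15.4% were called between regions, 6.53% as lower in MEC; the share of higher calls among them was 57.6%, or 46.0% with library totals alone, where Adra1b made a 4th lower receptor. Adra1b was called lower in MEC as well with DESeq2 (LFC −0.37, adjusted p = 0.0452) and limma voom (−0.41, adjusted p = 0.0270). Without the 3 libraries it was also called in edgeR (−0.44, adjusted p = 0.00267). The number of receptors called between regions was 5 without the 3 libraries, as it was without all P2 libraries numbered 3, and 1 without the P23 libraries numbered 2.

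**Figure D2:**
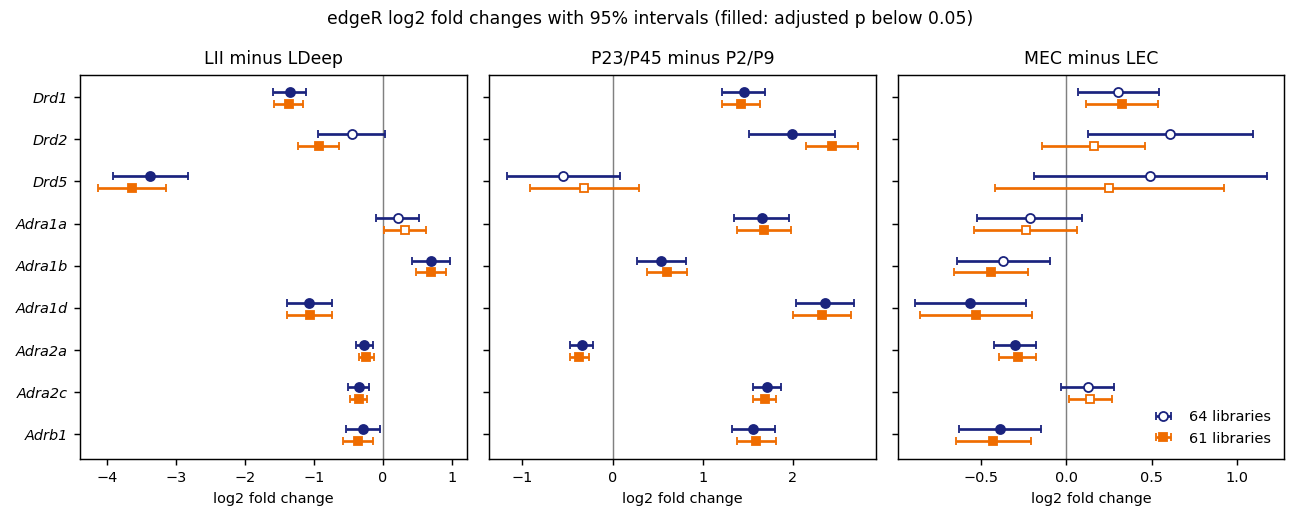
LFC of each receptor between layers (LII minus LDeep), ages (P23 and P45 minus P2 and P9) and regions (MEC minus LEC), with 95% intervals, from all 64 libraries (circles) and without the 3 that stood apart (squares), filled where the adjusted p was below 0.05. Drd5 has the most negative layer value (−3.37), Adra1d the highest age value (2.35), and between layers and regions the values of Drd2 move most when the libraries are left out.

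**Figure D3:**
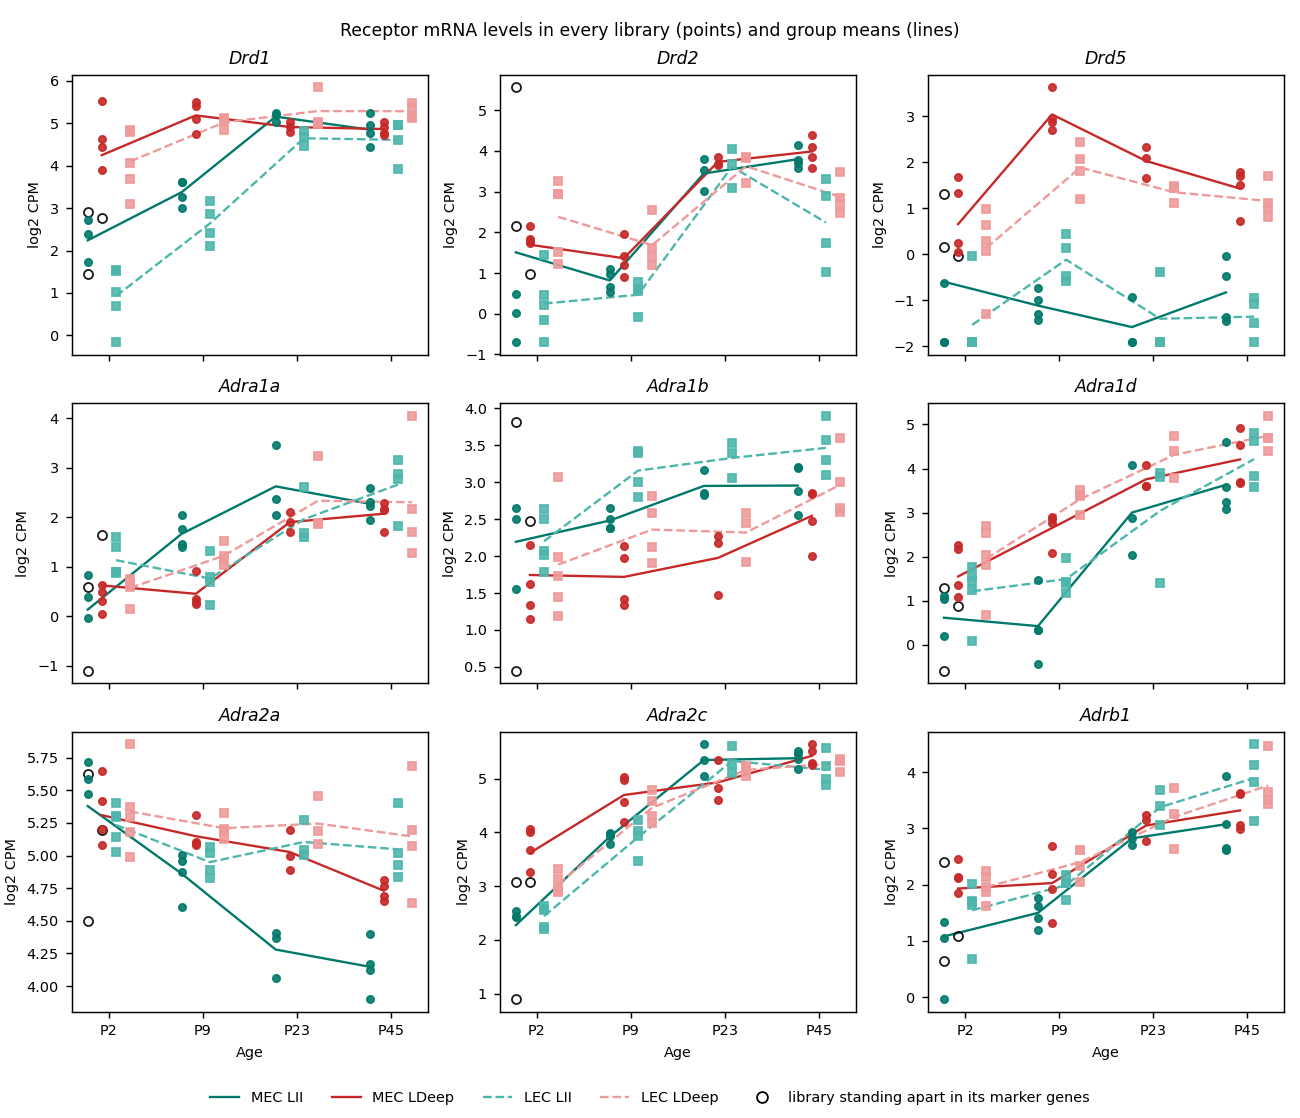
Log2 CPM of each receptor in every library (points) by age, with region and layer told apart by colour and marker, lines through the group means, and open circles for the 3 libraries that stood apart in their marker genes. Drd5 in LII stays low in its panel at all ages, and Drd1 in LII starts low and lies near LDeep from P23 on.

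Drd1, the main D1-like receptor of the forebrain, was called lower in LII than in LDeep at P2 and P9 but not at P23 or P45. In LEC LII at P2 the 5 libraries had log2 CPM of −0.16, 1.03, 1.52, 0.68 and 1.54, which were 4 to 15 counts each. In LEC LDeep at P2 they had 3.69, 4.85, 3.09, 4.80 and 4.05. Every LEC LDeep library at P2 was thus above every LII library. In MEC at P2 the LII libraries had 2.92, 1.72, 1.45, 2.72 and 2.40 and the LDeep libraries 2.77, 4.63, 3.89, 5.52 and 4.43. The layers overlapped there only because LDeep replicate 1 lay below LII replicate 1, both of them libraries that stood apart. Without the 3 libraries that stood apart, the MEC means at P2 were 2.28 in LII and 4.62 in LDeep. At P9 the layers stood apart in both regions, with LII at 3.01, 3.61, 3.62 and 3.26 and LDeep at 5.41, 5.09, 4.74 and 5.50 in MEC.

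By P23 the MEC layers lay close together. MEC LII had 5.19, 5.03 and 5.25 log2 CPM and MEC LDeep 4.92, 4.79 and 5.03. At P45 MEC LII had 4.77, 4.95, 4.45 and 5.23 and LDeep 5.04, 4.73, 4.92 and 4.77, with full overlap of the ranges. In LEC the ranges did not overlap at P23, where LII had 4.46, 4.81 and 4.67 and LDeep 5.04, 4.98 and 5.85. Nor did they at P45, where LII had 3.92, 4.61, 4.95 and 4.95 and LDeep 5.12, 5.37, 5.48 and 5.16.

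The LFC between layers (LII minus LDeep) in MEC was −2.18 at P2 (SE 0.32, adjusted p = 1.06e-05) and −1.83 at P9 (SE 0.33, adjusted p = 7.77e-05), then 0.25 at P23 and 0.01 at P45, where the 95% interval ran from −0.61 to 0.62. In LEC it was −3.38 at P2 (SE 0.38, adjusted p = 6.03e-08) and −2.33 at P9 (SE 0.35, adjusted p = 4.78e-06). At P23 and P45 the LEC values of −0.70 and −0.62 did not pass the test (adjusted p = 0.233 and 0.212). That the layer difference moved with age was itself called, with an LFC of 2.17 (SE 0.24, adjusted p = 2.79e-09). It was one of 2 receptors so called, against 8.8% of all genes, and the value was 2.23 without the 3 libraries. Over both regions and all ages Drd1 was 2.55-fold lower in LII (LFC −1.35, SE 0.12, adjusted p = 6.27e-14).

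The rise of Drd1 with age was larger in LII than in LDeep, by the test of the layer difference just given. From the young to the older ages it rose in MEC LII by an LFC of 2.18 (SE 0.24) and in LEC LII by 2.90 (SE 0.27). In LEC LDeep the LFC was 0.69 (adjusted p = 0.00592), and in MEC LDeep it was 0.04 with an interval from −0.40 to 0.48. Over all tissue Drd1 rose in the first step, from P2 to P9 (LFC 1.12, SE 0.17), and again from P9 to P23 (0.94, SE 0.17). When the counts of same-numbered samples of an age were summed before the edgeR test, the second step was 0.52 and not called (adjusted p = 0.0894). In LII the 12 meningeal markers summed to a median of 1129 CPM at P2 and P9 and of 1135 CPM at P23 and P45, and the 10 deep-layer neuron markers to medians of 498 and 360 CPM. The medians of other lists in LII were higher at the older ages: 989 and 2193 CPM for the glutamatergic markers, 562 and 972 for the GABAergic, 207 and 368 for the striatal, 1745 and 3965 for the astrocyte, 108 and 340 for the microglial and 120 and 2776 for the oligodendrocyte markers. In LDeep these other lists also had higher medians at the older ages. They were 879 and 2469 CPM for the glutamatergic, 790 and 1294 for the GABAergic and 200 and 346 for the striatal markers. The astrocyte, microglial and oligodendrocyte medians were 1079 and 2302.5, 104 and 291, and 151 and 7332 CPM. The meningeal medians in LDeep were 93.1 and 166 CPM, and those of the deep-layer neuron markers 1164 and 1045. The part of any list in the result was not tested.

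Between regions Drd1 had an LFC (MEC minus LEC) of 0.30 that missed the threshold (adjusted p = 0.0838, or 0.0276 without the 3 libraries). Within LII it was higher in MEC (LFC 0.71, SE 0.18, adjusted p = 0.00499). The difference between the regions in the layer contrast was 0.82 (adjusted p = 0.0810), and 0 of 9 receptors passed this test by edgeR, against 1.25% of all genes. DESeq2 called 1 receptor there, Drd1.

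**Figure D4:**
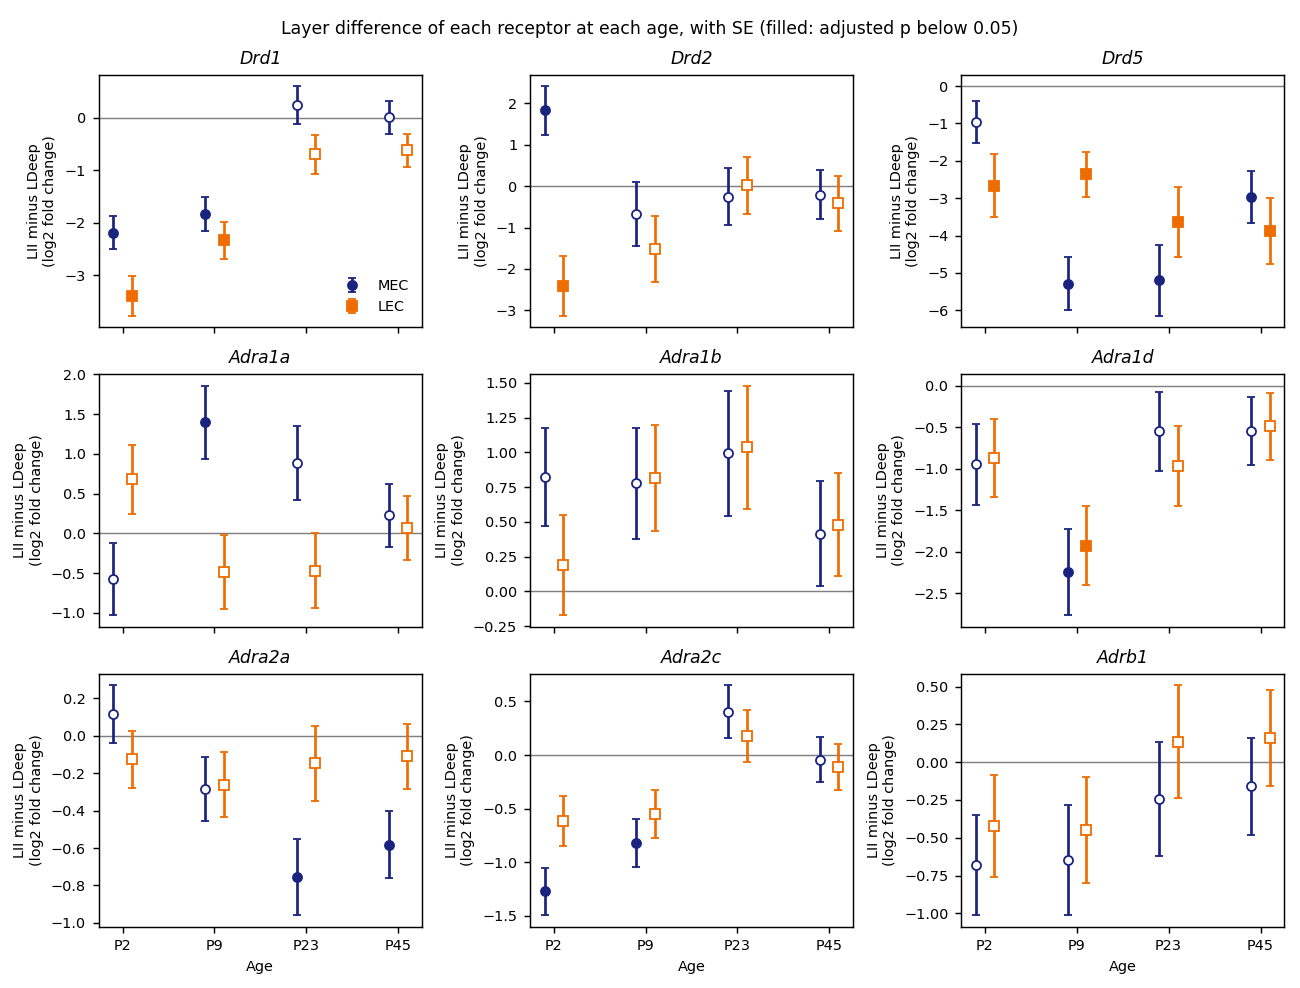
LFC between layers (LII minus LDeep) of each receptor at each age in MEC (circles) and LEC (squares), from all 64 libraries, with SE bars, a line at 0 and filled symbols where the adjusted p was below 0.05. Drd1 goes from −2.18 to 0.01 in MEC and from −3.38 to −0.62 in LEC, Adra2c in MEC starts at −1.27, and all values of Drd5 lie below 0.

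Drd5, the second D1-like receptor, was found mostly in LDeep. Its counts summed to 777 over the 32 LDeep libraries and to 82 over the 32 LII libraries, so that 90.5% lay in LDeep. In LII 11 libraries had 0 counts and 24 had 3 or fewer, while 1 LDeep library had 3 or fewer. The LFC between layers was −3.37 (SE 0.28, adjusted p = 2.60e-15), the widest of the 9. Since many LII libraries had 0 counts, the ratio of the summed counts per depth is given beside it, with an exact interval for counting error only.

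At P9 in MEC the LDeep libraries had 91, 39, 70 and 73 counts of Drd5 and the LII libraries 2, 1, 2 and 1. No LII library came near LDeep, and the ratio was 42.5 (95% interval 19.3 to 117). At P23 the ratio in MEC was 43.1, with a wide interval of 11.6 to 361 because LII held 2 counts in all. At P45 it was 8.50 (4.27 to 19.2). In LEC the ratio ran from 5.39 at P9 to 16.3 at P45, and the intervals at the 4 ages overlapped.

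At P2 in MEC the ratio of Drd5 was 1.82 (1.17 to 2.87), and the layer LFC of −0.96 was not called (adjusted p = 0.272). LII replicate 1 alone held 22 of the 35 counts of its group, and replicate 3 held 9. Both are libraries that stood apart, and without the 3 the ratio was 9.42 (3.45 to 36.0) and the LFC −3.18 (adjusted p = 0.00218).

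The level of Drd5 in LDeep peaked at P9. From the youngest to the oldest age, MEC LDeep had mean log2 CPM of 0.65, 3.04, 2.03 and 1.43, and LEC LDeep 0.14, 1.89, 1.35 and 1.16. Over both regions and both layers, Drd5 rose from P2 to P9 (LFC 1.17, SE 0.39, adjusted p = 0.00873) and fell by 1.16 from P9 to P23 (SE 0.47, adjusted p = 0.0282). LII, with its few counts, entered these values with the same weight as LDeep. Without 1 replicate number of an age these values ran from 0.93 to 2.10 and from −1.88 to −0.89. The first was not called without the P9 libraries numbered 1 (0.93, adjusted p = 0.0695), nor the second without those (−0.92), without the P9 libraries numbered 3 (−1.13) or without the P23 libraries numbered 2 (−0.89). The comparison of older with young ages, again over both layers, gave −0.54 (adjusted p = 0.113). Without 1 replicate number of an age it ran from −0.91 to −0.09. It was called without the P2 libraries numbered 2 (adjusted p = 0.0424) and without the P23 libraries numbered 1 or 3 (adjusted p = 0.0419 and 0.0442).

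Drd2, the D2-like receptor, had the lowest level per length of the 9 at P9 (0.751 CPM per kilobase), and its value at P2 hung on single libraries. In MEC LII at P2 the 5 libraries had 42, 2, 496, 5 and 12 counts, the 496 in replicate 3 with its 4700 counts of Th. The same library had 1735 counts of the vesicular monoamine transporter Slc18a2 and 1743 of the decarboxylase Ddc. Th was raised in all 4 P2 libraries numbered 3, at 4700, 178, 176 and 528 counts, against 0 to 42 in the other 60, and Slc6a3 at 4753, 173, 6 and 207 against 0 to 4. Drd2 had 36, 62 and 14 counts in the other 3 of these libraries, of MEC LDeep, LEC LDeep and LEC LII. The part of these transcripts in Drd2 was not tested.

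**Figure D5:**
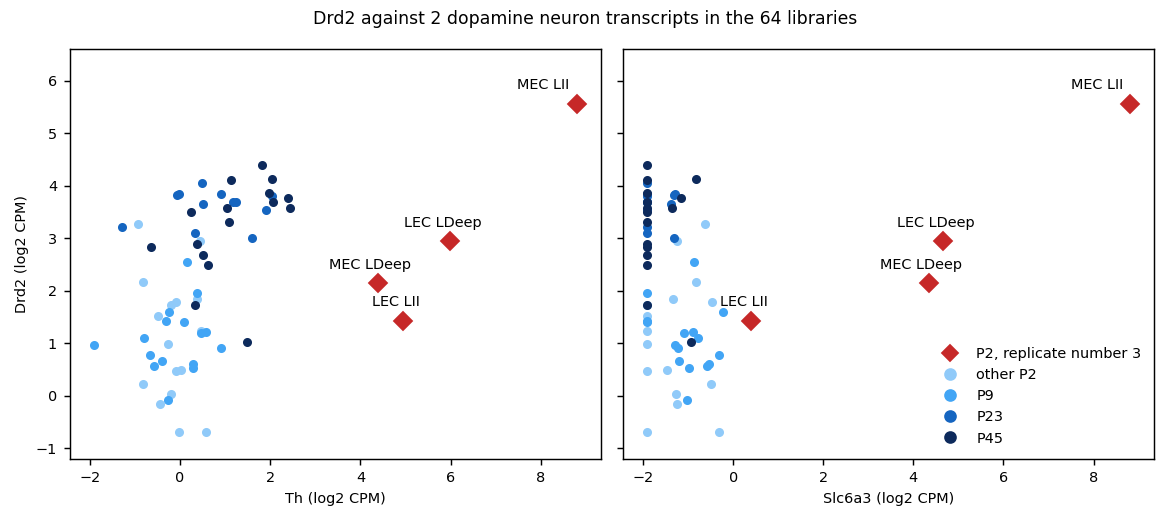
Log2 CPM of Drd2 (vertical) against that of Th and of Slc6a3 (horizontal) in each of the 64 libraries, with age as colour and the 4 P2 libraries numbered 3 as diamonds. MEC LII replicate 3 lies alone at the upper right of both panels, with 496 counts of Drd2.

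With all libraries, Drd2 in MEC at P2 was called higher in LII (LFC 1.82, SE 0.59, adjusted p = 0.0392), and without the 3 libraries it was called lower (−2.06, adjusted p = 0.00471). In LEC at P2, where no library was left out, it was lower in LII (−2.41, SE 0.72, adjusted p = 0.0175), at 4, 5, 14, 6 and 2 counts in LII against 23, 15, 62, 73 and 48 in LDeep. All 5 LDeep libraries held more counts than any LII library, but in log2 CPM LII replicate 3 (1.43) exceeded LDeep replicate 2 (1.23). Over both regions the LFC between layers was −0.45 (adjusted p = 0.113), and −0.93 without the 3 libraries (adjusted p = 5.48e-07). The region difference in LII at P2, 3.34 with all libraries (adjusted p = 0.00193), became −0.41 (adjusted p = 0.871). At P45 the Drd2 ranges of MEC and LEC did not overlap in either layer, though neither difference was called with all libraries. MEC LII had log2 CPM of 3.58 to 4.14 and LEC LII 1.02 to 3.32. MEC LDeep had 3.59 to 4.40 and LEC LDeep 2.48 to 3.49.

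Drd2 rose with age under either choice, by an LFC of 1.99 (SE 0.24, adjusted p = 1.33e-10), or 2.43 without the 3 libraries. The rise fell into the step from P9 to P23, with an LFC of 2.65 (SE 0.37), the largest of any receptor in any step. In MEC LDeep the P9 libraries had log2 CPM of 1.42, 0.90, 1.19 and 1.95 and the P23 libraries 3.69, 3.65 and 3.85. The ages did not overlap. In LEC the mean log2 CPM of Drd2 was lower at P45 than at P23, at 2.24 after 3.61 in LII and 2.87 after 3.62 in LDeep. Drd1 and Drd2 mark striatal neurons as well, and of 9 tested striatal markers 4 rose with age, Ppp1r1b, Penk and Tac1 among them, and 1, Gpr6, fell, while Isl1 did not pass the filter. The striatal list summed to 161 to 242 CPM in LII at P2 and P9 and 318 to 488 CPM at P23 and P45, and to 178 to 297 and 301 to 412 CPM in LDeep, and its part in the rise was not tested. The drop called from P2 to P9 (−0.98, adjusted p = 0.0182) was not called without the 3 libraries (−0.08, adjusted p = 0.787).

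Among the alpha1 receptors, Adra1b alone of the 9 was called higher in LII. It was 1.61-fold higher there (LFC 0.69, SE 0.14, adjusted p = 3.50e-05), by 0.75 in MEC and 0.63 in LEC. With limma voom these 2 values were 0.35 (adjusted p = 0.145) and 0.40 (adjusted p = 0.0798), neither of them called. At P9 in LEC the LII libraries had log2 CPM of 3.43, 3.39, 3.01 and 2.80 and the LDeep libraries 2.59, 1.90, 2.82 and 2.12. A single LDeep library, replicate 3, reached above the lowest LII value. With all libraries, Adra1b was called between layers at no single age in either region. Adra1b varied least with age of the receptors that rose (LFC 0.54, SE 0.14, adjusted p = 0.000429). It had 146 counts in MEC LII replicate 3 at P2, against 11 to 57 in the rest of that group.

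Adra1d followed the reverse layer pattern. It was 2.10-fold lower in LII (LFC −1.07, SE 0.17, adjusted p = 2.31e-07), and the gap was widest at P9. In MEC at P9 the LII libraries had 0.33, 1.47, −0.44 and 0.33 log2 CPM and the LDeep libraries 2.90, 2.77, 2.07 and 2.86. The layers did not overlap, and the LFC was −2.24 (SE 0.52, adjusted p = 0.00164), beside −1.93 in LEC (SE 0.47, adjusted p = 0.00255). At P2, P23 and P45 the layer difference of Adra1d was not called in either region.

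Adra1d rose most with age of the 9, 5.11-fold (LFC 2.35, SE 0.16, adjusted p = 3.03e-19). In LEC LDeep it went from 2.03, 2.70, 0.67, 2.54 and 1.82 log2 CPM at P2 to 4.70, 4.39, 4.69 and 5.20 at P45. The step from P2 to P9 had an LFC of 0.61 (adjusted p = 0.0286, or 0.0658 without the 3 libraries), and that from P9 to P23 was 1.75 (SE 0.24). It was lower in MEC than in LEC (LFC −0.56, SE 0.17, adjusted p = 0.0125).

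Adra1a rose with age in all 4 tissues, by LFCs of 1.52 to 1.82, and showed no layer difference that held over the ages (LFC 0.21, interval −0.09 to 0.52, adjusted p = 0.253). An exception was MEC at P9, where LII had 1.46, 2.04, 1.40 and 1.75 log2 CPM and LDeep 0.90, 0.29, 0.35 and 0.25. All 4 LII libraries were higher, by an LFC of 1.40 (SE 0.46, adjusted p = 0.0278), though on 6 to 12 counts in LDeep. The call was lost with limma voom (0.95, adjusted p = 0.164) and without the P9 libraries numbered 2, 3 or 4 (adjusted p = 0.144, 0.0791 and 0.126). Its rise from P9 to P23 was 1.37 (SE 0.23).

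The alpha2 receptors parted with age. Adra2a, the alpha2 receptor that dominated at P2, was the only one of the 9 called lower at the older ages (LFC −0.34, SE 0.06, adjusted p = 2.43e-06), and the decline was larger in MEC than in LEC by the test given below. MEC LII had 5.63, 5.58, 4.50, 5.71 and 5.47 log2 CPM at P2, then 4.88, 4.96, 4.61 and 5.00 at P9, then 4.37, 4.41 and 4.06 at P23 and 4.40, 4.12, 4.17 and 3.90 at P45. Apart from replicate 3 at P2, which stood apart, P2 lay above P9 and P9 above P23, while P23 and P45 overlapped. LEC LII had 5.40, 5.14, 5.03, 5.30 and 5.30 at P2 and still 4.84, 5.02, 4.93 and 5.40 at P45.

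The LFC of Adra2a with age was −0.94 in MEC LII (SE 0.13, adjusted p = 8.66e-09) and −0.35 in MEC LDeep (SE 0.12, adjusted p = 0.0110). In LEC LII it was −0.00 (interval −0.25 to 0.24) and in LEC LDeep −0.07 (−0.31 to 0.17). The change of the region difference with age was called (LFC −0.61, SE 0.13, adjusted p = 0.00143), for 1 receptor of 9 beside 4.38% of all genes. Without the 3 libraries it was −0.65, and Drd1 was called too (−0.74, adjusted p = 0.0263).

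At P23 and P45 Adra2a was accordingly lower in MEC LII than in LEC LII, by LFCs of −0.83 (SE 0.21, adjusted p = 0.0161) and −0.93 (SE 0.18, adjusted p = 0.000369), with no overlap of the regions at either age. It was also lower in MEC LII than in MEC LDeep, by −0.75 at P23 (SE 0.20, adjusted p = 0.00663) and −0.58 at P45 (SE 0.18, adjusted p = 0.0179). At P2 neither difference was called. Over the whole design Adra2a was 1.23-fold lower in MEC (LFC −0.30, adjusted p = 0.000254) and 1.20-fold lower in LII (LFC −0.27, adjusted p = 0.000282).

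Adra2c, the other alpha2 receptor, rose 3.27-fold from the young to the older ages (LFC 1.71, SE 0.08, adjusted p = 1.34e-26). In MEC LII it went from 0.90, 2.44, 3.07, 2.54 and 2.42 log2 CPM at P2 to 3.79, 3.99, 3.93 and 3.97 at P9 and to 5.35, 5.05 and 5.64 at P23. Each age lay clear above the one before. In MEC LDeep it went from 3.07, 3.68, 3.27, 4.06 and 4.01 at P2 to 4.98, 4.56, 4.20 and 5.04 at P9. The step from P2 to P9 had an LFC of 1.40 (SE 0.11) and that from P9 to P23 of 0.95 (SE 0.12).

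The layer difference of Adra2c, like that of Drd1, changed with age. In MEC it was −1.27 at P2 (SE 0.22, adjusted p = 0.000132) and −0.82 at P9 (SE 0.22, adjusted p = 0.00652), and neither P23 nor P45 was called. Without the 3 libraries the MEC means of Adra2c at P2 were 2.47 log2 CPM in LII and 3.75 in LDeep. In LEC the layer difference with all libraries was −0.61 at P2 and −0.55 at P9, short of the threshold (adjusted p = 0.0765 and 0.0867). The test of a layer difference that moved with age gave an LFC of 0.92 (SE 0.16, adjusted p = 4.57e-05). Without the 3 libraries Drd2 (1.45, adjusted p = 0.000419) and Adrb1 (0.68, adjusted p = 0.0338) were called there as well, which made 4.

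Adrb1, the beta receptor that drives cyclic AMP in neurons and glia, rose 2.95-fold with age (LFC 1.56, SE 0.12, adjusted p = 3.59e-17). The step from P9 to P23 was called (LFC 1.19, SE 0.18) and that from P2 to P9 was not (0.29, adjusted p = 0.144). In LEC LII it went from 2.02, 2.03, 1.73 and 2.18 log2 CPM at P9 to 3.69, 3.39 and 3.05 at P23. Those ages did not overlap. Adrb1 was lower in MEC (LFC −0.39, SE 0.12, adjusted p = 0.0204). Its layer difference was the least firm of the 7 (LFC −0.29, adjusted p = 0.0416), being called in 12 of 24 other settings.

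Seen step by step, 6 of 9 receptors changed from P2 to P9 (63.4% of all genes), 7 from P9 to P23 (64.6%) and 0 from P23 to P45 by edgeR (3.85%), in all 13 of 27 receptor and step pairs (44%). The LFCs of the last step lay between −0.34 for Drd2 and 0.59 for Adra1d, and 1 receptor, Adrb1, passed in that step when 6 libraries were left out. Within single groups, 20 of 72 receptor and group pairs were called between layers (13.8% over all genes), 18 of them lower in LII. The number was 28 without the 3 libraries. Between regions 4 of 72 pairs were called (2.35%), and 5 without the 3 libraries, when neither Drd1 nor Drd2 was called in LII at P2. Between ages 26 of 36 pairs were called (65%), and 28 without the 3 libraries.

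Across the 16 group means, Adra1d and Adrb1 had a Pearson r of 0.93 and Adra2c and Adrb1 of 0.87, while Adra1b had 0.11 with Drd1, 0.23 with Drd2 and 0.35 with Adra1d, as a description over groups that share their ages. The genes whose group means were most like a receptor were Rasgrp1 for Drd1 (r = 0.94), Taf2 for Drd2 (0.97), Bhmt for Drd5 (0.96), Slc25a23 for Adra1a (0.96), Arsj for Adra1b (0.93) and RGD1304884 for Adra1d (0.97). For Adra2a it was Myh7 (0.91), for Adra2c Them6 (0.98) and for Adrb1 Pde1b (0.98), the calmodulin-dependent phosphodiesterase of the downstream list.

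Of the same families, Drd3, Drd4, Adra2b and Adrb3 were scarce and did not pass the filter, with at most 6, 6, 18 and 16 counts in a library.

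Downstream of the receptors, the signalling genes moved both ways with age. Of 16 G proteins and adenylyl cyclases 3 rose and 8 fell, beside 41% and 40.6% of all genes. Those that rose were the cyclases Adcy2 (LFC 0.90), Adcy3 (0.64) and Adcy8 (0.25), while the inhibitory subunit Gnai3 (−1.45), the olfactory-type stimulatory subunit Gnal (−1.21) and Gng7 (−0.97) were among those that fell. Of 19 effectors and desensitizing genes 14 rose and 2 fell, beside the same shares of all genes. Ppp1r1b, which encodes the dopamine-regulated phosphatase inhibitor DARPP-32, rose most (2.98), with Rgs4 (1.56) and Pde1b (1.55), and Prkar2b (−1.42) and Plcb3 (−0.40) fell.

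Between layers 10 of these 19 genes were lower in LII and 2 higher, beside 30.5% and 23.5% of all genes. Rgs9, which shortens G protein signals, had an LFC of −1.86, and Ppp1r1b of 0.66 and Plcb3 of 0.73 were the 2 higher. The layer difference of Rgs9 moved with age by −2.04, opposite in sign to that of Drd1. Of the genes for catecholamine synthesis, transport and breakdown 9 of 11 were tested. Maob (2.65), which breaks catecholamines down, rose with age, and Slc22a3 (−0.66) fell. Slc18a2 (−3.01) and Slc6a3 (−4.60) were called lower at the older ages as well. Slc18a2 had 1735 counts in MEC LII replicate 3 at P2 and 926 in replicate 1, both libraries that stood apart, and its LFC was −2.48 without the 3 libraries. Slc6a3 then had too few counts to be tested. The P2 libraries numbered 3 of MEC LDeep, LEC LII and LEC LDeep stayed in that fit. They had 61, 14 and 92 counts of Slc18a2, against a median of 4.5 in the 60 libraries outside that number and age. The noradrenaline-making enzyme Dbh was lower in MEC (−1.63) on at most 15 counts.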

How the data were processed

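RNA of 64 samples of rat entorhinal cortex was depleted of ribosomal RNA and sequenced with a stranded kit. Per the labels and the study's methods, the authors demultiplexed with bcl2fastq 1.8.4, trimmed with Trimmomatic 0.33, mapped to rn6 with STAR 2.4.0 and counted read pairs on RefSeq exons by strand with featureCounts of Subread 1.4.6-p1. The deposited files hold whole-number counts per gene, 1 file per sample, where chimeric pairs and pairs with an unmapped end were dropped and a pair overlapping several genes was counted for each.

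Region, layer, age and replicate number came from the sample labels. Counts were fitted with edgeR 4.0.16 (R 4.3.3) by quasi-likelihood over all 64 samples, with 1 mean per group, TMM library sizes, the filterByExpr filter and no covariate. Tests were two-sided, p-values were BH adjusted over the 12521 genes passing the filter, and the threshold was 0.05. SE is the LFC divided by the root of the F statistic, intervals are 95%, and log2 CPM used a prior count of 2. The study's own test, limma voom with TMM and quantile normalization (limma 3.58.1), DESeq2 1.42.0, other scalings and filters, a replicate block and left-out libraries were tried as alternatives. The fit was tested on simulated counts for the layer contrast over 12322 genes: it recovered 56 of 68 genes changed by a log2 of 0.5, 57 of 58 at 1 and 74 of 74 at 2, and called 15 of 12122 unchanged ones.

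No 2 of 100 replicate pairs were identical, and the lowest chi-square per degree of freedom was 2.82, so each library counted once. Intervals on counts cover counting error only. Replicate numbers were not used to pair samples. The receptors, the marker and pathway lists and the tests were chosen with earlier results of these data known. The text names the 9 receptors, for each a gene most like it by Pearson r over the 16 group means, and genes of those lists. Adcy9 was not analysed here, protein sequences were not used here, and a few list genes are not reported here.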

Additional observations from a re-analysis of the deposited data

Results flagged for a closer look

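Of 108 combinations of a receptor and a group with 4 or 5 libraries, 8 held a library far from the others by Dixon's test, a number near the 1 in 20 that chance gives. Drd5 in LEC LII at P2 had a log2 CPM of −0.0438 in replicate 5, which carried 4 counts, and −1.91 in the other 4 libraries, all at 0 counts. Adra2a in MEC LII at P2 was 4.50 in replicate 3, the library with the Th and Slc6a3 counts, against 5.47 to 5.71 in the others. Adra1d in MEC LDeep at P9 was 2.07 in replicate 3, against 2.77 to 2.90. In the remaining 5 the single library was Adra1a in MEC LDeep at P9, replicate 1 (0.90), Adra1a in LEC LDeep at P2, replicate 2 (0.13), Adra2a in MEC LDeep at P9, replicate 2 (5.31), Adra2c in LEC LDeep at P45, replicate 1 (5.12) and Adrb1 in LEC LII at P2, replicate 4 (0.68).

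An effect differed between groups by its own test for 3 values. The layer difference changed with age for Drd1 (LFC 2.17) and Adra2c (0.92), and the region difference changed with age for Adra2a (−0.61).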

How the results depend on the processing

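Across 28 alternative settings most receptor values kept their direction and their side of the threshold. With at least 10 counts required in every sample, 3 receptors were left to test, and the calls were 3 between layers, 3 between ages, 1 between regions, 1 for a layer difference that changed with age and, over pairs, 3 for age steps, 4 for layers, 2 for regions and 7 for ages in single tissues. DESeq2 called 1 receptor (Drd1) for a layer difference that differed between regions. Leaving out the 3 libraries, or 6 with 3 more that deviated in markers (both chosen after seeing the data), gave 5 calls between regions, 4 for a layer difference that changed with age and 2 for a region difference that did so.

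The replicate numbers came from the labels. For its microRNA samples the paper uses such a number to mark the layers of 1 animal, but no source says so for these libraries. The main fit treated the libraries as independent. Deviations from the group means correlated by 0.134 on average over 96 same-numbered pairs (lowest −0.259, 55 over 0.1) and by −0.0430 over 300 others, and 42 of 64 samples correlated best with their own number. With the replicate block 5 receptors were called between regions and 1 for a layer difference that differed between regions, and the layer value of Drd1 in MEC at P45 was −0.0087. The block was not used further.

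Leaving out 1 replicate number of an age at a time gave 6 to 8 calls between layers, 8 to 9 between ages, 1 to 5 between regions, 0 to 1 for a layer difference that differed between regions, 2 to 3 for one that changed with age and 1 to 2 for a region difference that changed with age. The sign of Drd2 between layers in MEC at P2 turned with limma voom (−0.25) and with 3 or 6 libraries left out (both −2.06), and its values without 1 replicate number ran from −0.67 to 2.14. Its region value in LII at P2 turned to −0.41 and −0.40 with 3 and 6 left out, on the libraries shown above. Values near 0 that had not been called also turned. Adra1a between layers was −0.11 with limma voom. Drd1 between layers in MEC at P45 was −0.0715 with limma voom, −0.12 with 6 libraries out and −0.21 to 0.11 without 1 number. Drd1 with age in MEC LDeep was −0.0025 with library totals, −0.0673 and −0.14 with 3 and 6 libraries out, and −0.0683 to 0.24 without 1 number. Adra2a with age in LEC LII was 4e-04 with the strict filter, 0.0093 with 6 libraries out and −0.12 to 0.0176 without 1 number, and in LEC LDeep −0.16 to 0.0051. The cause was not tested. Low counts limit Drd5 and Adra1a most.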
